A study of Mus musculus with 9 samples.

Results

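Translation initiation factor genes were examined in mouse fibroblasts in which the necroptosis effector MLKL was dimerized with a compound, early and after a washout. The genes were those whose probe set carries 1 gene symbol that begins with Eif and a digit from 1 to 6, leaving out the Eif2ak kinases, and a gene with several probe sets was read at the one of highest mean across the 9 arrays. The rule found 47 of the 22180 genes with such a probe set. It used no difference between groups. Besides 44 genes of known factor families it took in Eif2c5, whose name is that of an Argonaute relative, the pseudogene Eif1-ps3 and the Eif4a3 copy Eif4a3l1.

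RNA was measured on 9 one-colour Affymetrix arrays, 3 in each of 3 groups, all of the line hMLKL1-181-2Fv-NIH3T3. NIH3T3 is a mouse embryonic fibroblast line, and all groups carried a fusion of part of human MLKL, the effector of necroptosis, to Fv domains. The compound B/B dimerizes Fv domains and with them the fusion. The first group had control treatment. The second received B/B (50 nM, 1 h) before AnnV+ cells were sorted, which bind annexin V because they expose phosphatidylserine. The third was treated and sorted likewise and then kept in washout for 6 h at 3000 nM of a compound that the labels do not name. Whether the line is 1 clone, or which promoter drives the fusion, is not stated in the labels. Sorting and harvest time are not stated for the control, so against it the effects of B/B, the sort and the time cannot be told apart. Between washout and B/B 1 h, the effects of the washout, the unnamed compound and the further 6 h cannot be told apart either. Nothing says that replicates were separate cultures, so p-values measure the spread between these samples, which may be technical.

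Initiation begins when the eIF2 complex, loaded with GTP, carries the initiator tRNA to the small ribosomal subunit, where eIF3, eIF1 and eIF1A are bound. The cap-binding complex eIF4F, made of eIF4E, the scaffold eIF4G and the helicase eIF4A, brings this assembly to the mRNA, and 4E-BP proteins block it by holding eIF4E. After the start codon is found, eIF5 stimulates hydrolysis of GTP on eIF2, eIF5B joins the large subunit, and eIF2B reloads eIF2 with GTP, a step that stress kinases inhibit by phosphorylating eIF2. Much of this control acts on the proteins, which arrays do not measure.

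Promoter windows are shown for 7 members that carry the results below: Eif4a1 and its helper gene Eif4h, both called lower after washout, and 5 of the 6 genes called with 1 sign in both washout comparisons. Each is the 250 bases before the gene start in RefSeq's GRCm38.p6 table, written along the gene's strand, with capitals marking a searched motif. The windows are those of Eif4a1 (chr11:69672424-69672673, minus strand), Eif4h (chr5:134639410-134639659, minus strand), Eif1ax (chrX:159371928-159372177, plus strand), Eif3b (chr5:140419055-140419304, plus strand), Eif1ad (chr19:5366563-5366812, plus strand), Eif5 (chr12:111537851-111538100, plus strand) and Eif3f (chr7:108934165-108934414, plus strand).
Eif4a1: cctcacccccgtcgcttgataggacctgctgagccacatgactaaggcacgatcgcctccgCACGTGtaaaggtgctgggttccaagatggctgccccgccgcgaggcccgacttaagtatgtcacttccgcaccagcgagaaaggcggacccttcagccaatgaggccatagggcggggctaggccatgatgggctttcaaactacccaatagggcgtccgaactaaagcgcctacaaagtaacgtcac
Eif4h: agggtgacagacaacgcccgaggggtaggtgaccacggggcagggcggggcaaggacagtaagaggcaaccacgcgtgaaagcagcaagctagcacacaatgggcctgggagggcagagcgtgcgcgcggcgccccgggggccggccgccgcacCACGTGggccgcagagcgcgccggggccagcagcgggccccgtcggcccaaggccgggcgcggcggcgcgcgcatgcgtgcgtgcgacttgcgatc
Eif1ax: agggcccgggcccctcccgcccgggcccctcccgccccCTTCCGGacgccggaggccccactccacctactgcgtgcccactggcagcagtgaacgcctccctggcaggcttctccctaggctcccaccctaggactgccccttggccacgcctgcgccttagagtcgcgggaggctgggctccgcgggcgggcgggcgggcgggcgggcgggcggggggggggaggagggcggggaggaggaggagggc
Eif3b: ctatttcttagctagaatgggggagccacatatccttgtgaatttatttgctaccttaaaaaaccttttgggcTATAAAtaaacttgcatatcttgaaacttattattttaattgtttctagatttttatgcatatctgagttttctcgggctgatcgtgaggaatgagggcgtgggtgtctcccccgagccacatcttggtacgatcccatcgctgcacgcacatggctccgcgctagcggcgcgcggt
Eif1ad: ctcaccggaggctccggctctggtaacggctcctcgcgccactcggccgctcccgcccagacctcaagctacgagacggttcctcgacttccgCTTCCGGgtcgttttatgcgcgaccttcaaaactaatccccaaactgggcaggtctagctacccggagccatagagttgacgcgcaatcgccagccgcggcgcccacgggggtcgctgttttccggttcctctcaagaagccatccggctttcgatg
Eif5: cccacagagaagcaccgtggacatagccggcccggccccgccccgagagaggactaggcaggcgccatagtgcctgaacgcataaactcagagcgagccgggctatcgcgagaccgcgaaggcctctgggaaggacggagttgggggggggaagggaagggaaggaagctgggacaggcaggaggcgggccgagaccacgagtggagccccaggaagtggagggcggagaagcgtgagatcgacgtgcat
Eif3f: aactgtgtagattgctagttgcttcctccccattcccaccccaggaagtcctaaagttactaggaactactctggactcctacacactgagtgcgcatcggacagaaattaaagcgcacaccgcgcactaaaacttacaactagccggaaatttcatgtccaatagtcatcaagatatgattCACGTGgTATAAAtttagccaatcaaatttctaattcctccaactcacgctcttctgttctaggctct
The searched letters were the E-box CACGTG bound by MYC and related factors, the ETS-type motif CCGGAAG, the cyclic AMP response element TGACGTCA and the TATA-type motif TATAAA, each on both strands. The capitals are the E-box in Eif4a1 and Eif4h, the ETS-type motif on the opposite strand in Eif1ax and Eif1ad, the TATA-type motif in Eif3b, and an E-box and a TATA-type motif in Eif3f. Eif5 held none of the 4. Neither did Eif5b, which was also called with the same sign in both washout comparisons and whose window is not shown. An entry was present for 36 of the 47 members. The E-box was in 6 of these 36 windows (16.7%), against 6.02% of all 32851 windows of that length. These were Eif4a1 and Eif4h, called lower after washout against control, Eif1b and Eif3f, called higher there, Eif3k, called lower against B/B 1 h, and Eif5a2, which was not called. The ETS-type motif was in 9 (25.0%), against 6.91%. The TATA-type motif was in 3 (8.33%, against 12.4%) and the cyclic AMP response element in 0 (against 1.55%). Median GC content was 60.2% in the members' windows and 52.4% in all windows. Members were read at 1 window a gene, the one nearest the gene's outermost start, whereas all windows were counted without such a choice. A match is a description of letters, not of a bound site, and these shares were not tested.

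Array medians over all probe sets lay between 4.60 and 4.68 on the log2 scale, and correlations across genes, which are not independent replicates, were 0.998 to 0.999 within groups and 0.990 to 0.998 between them. The lowest array weight was 0.563, for B/B 1 h replicate 1. Fibroblast markers were present, with 12 of 12 outside the lowest 30% of genes by mean. Their mean log2 level was 10.27 to 10.31 in control, 10.28 to 10.31 at B/B 1 h and 9.84 to 9.85 after washout. There 9 of 12 were called lower and 1 higher than in control, where 11.7% and 14.5% of all genes were. Leukocyte markers had means of 5.04 to 5.08, 5.11 to 5.22 and 5.15 to 5.19. At 1 h 3 of 10 (Cd14, Cd68 and Adgre1) were called higher, where 1.01% of all genes were. The lowest 30% of genes by mean held 5 of the 10, among them Adgre1, Lyz2 and Ptprc. After washout Cd14 was 2.78-fold above control (log2 1.47 ± 0.060, limma adjusted p = 3.0e-07), and Lyz2 and Ptprc were called lower. Epithelial markers lay between 4.88 and 5.05 and endothelial ones between 4.42 and 4.59. The part of these shifts in the results was not tested, and in such bulk RNA fewer cells of a type and less RNA per cell cannot be told apart.

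Most initiation factor genes differed little between the 3 groups. Eif4a1 was called lower at B/B 1 h at 1 of its 2 probe sets and not at the other, and after washout members were called in both directions. A gene was called where limma's moderated test gave an adjusted p under 0.05, by Benjamini-Hochberg over all 22180 genes. At B/B 1 h, 0 of 47 members were higher than control, where 1.01% of all genes were, and 1 was lower, the helicase gene Eif4a1, where 1.88% of all genes were. That is 2.13% of members in either direction, against 2.89% of all genes. At an unadjusted p under 0.05, 2 members were higher (4.26%, against 8.16% of all genes) and 9 lower (19.1%, against 10.3%). After washout, 6 members were higher than control and 7 lower (27.7%, against 26.2% of all genes), and 10 were higher and 5 lower than at B/B 1 h (31.9%, against 28.6%). With each array's median set equal the last split was 10 and 3. Among the 44 members outside the lowest 30% of genes by mean, 2.27%, 29.5% and 34.1% were called, where 3.99%, 36.2% and 39.3% of all such genes were. The share at B/B 1 h depended on the fit: with the lowest 30% of genes left out before the fit 4 of 44 members were called, all lower (9.09%, against 6.13% of genes in that fit), and with a variance trend 5 of 47, all lower (10.6%, against 5.54%). A call with an absolute log2 difference of at least 0.5 was made for 1 member in each comparison, Eif4a1 against control and Eif3j1 against B/B 1 h, where 0.708%, 6.75% and 7.84% of all genes had one. The 3 members in the lowest 30%, Eif2c5, Eif2s3y and Eif4e1b, were called in none.

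**Figure D1:**
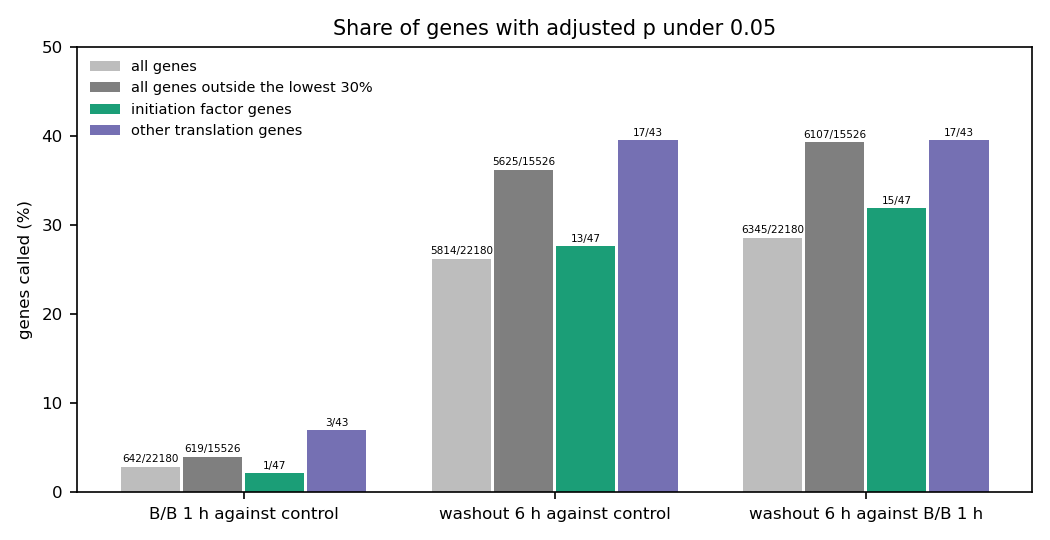
Share of genes called (adjusted p under 0.05), in percent, for each of the 3 comparisons, with the count over the number measured above each bar. The bars stand for the gene sets named in the legend; initiation factor genes reached 2.13%, 27.7% and 31.9%, beside 2.89%, 26.2% and 28.6% of all genes.

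The differences were small. The median absolute log2 difference of the members was 0.06 at B/B 1 h, 0.08 after washout against control and 0.08 against B/B 1 h, where all genes gave 0.07, 0.09 and 0.11. The signed medians were -0.03, -0.00 and 0.02 beside 0.00, 0.00 and -0.02. The 95% interval of the difference lay within 0.5 of 0 on the log2 scale in 45, 45 and 46 of the 47 members. The exceptions were Eif4a1 and Eif3j1 in both comparisons with control and Eif3j1 alone between washout and B/B 1 h. For all genes the same held in 21130, 19015 and 18640 of 22180. The groups compared had no overlap of arrays in 17, 25 and 19 of the 47 members, or 36.2%, 53.2% and 40.4%, where 21.3%, 38% and 39.6% of all genes did not. Among members outside the lowest 30% of genes by mean the shares were 38.6%, 54.5% and 43.2%. All such genes gave 26.4%, 49.8% and 51.7%. The comparisons share arrays, so their values are not independent of each other.

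**Figure D2:**
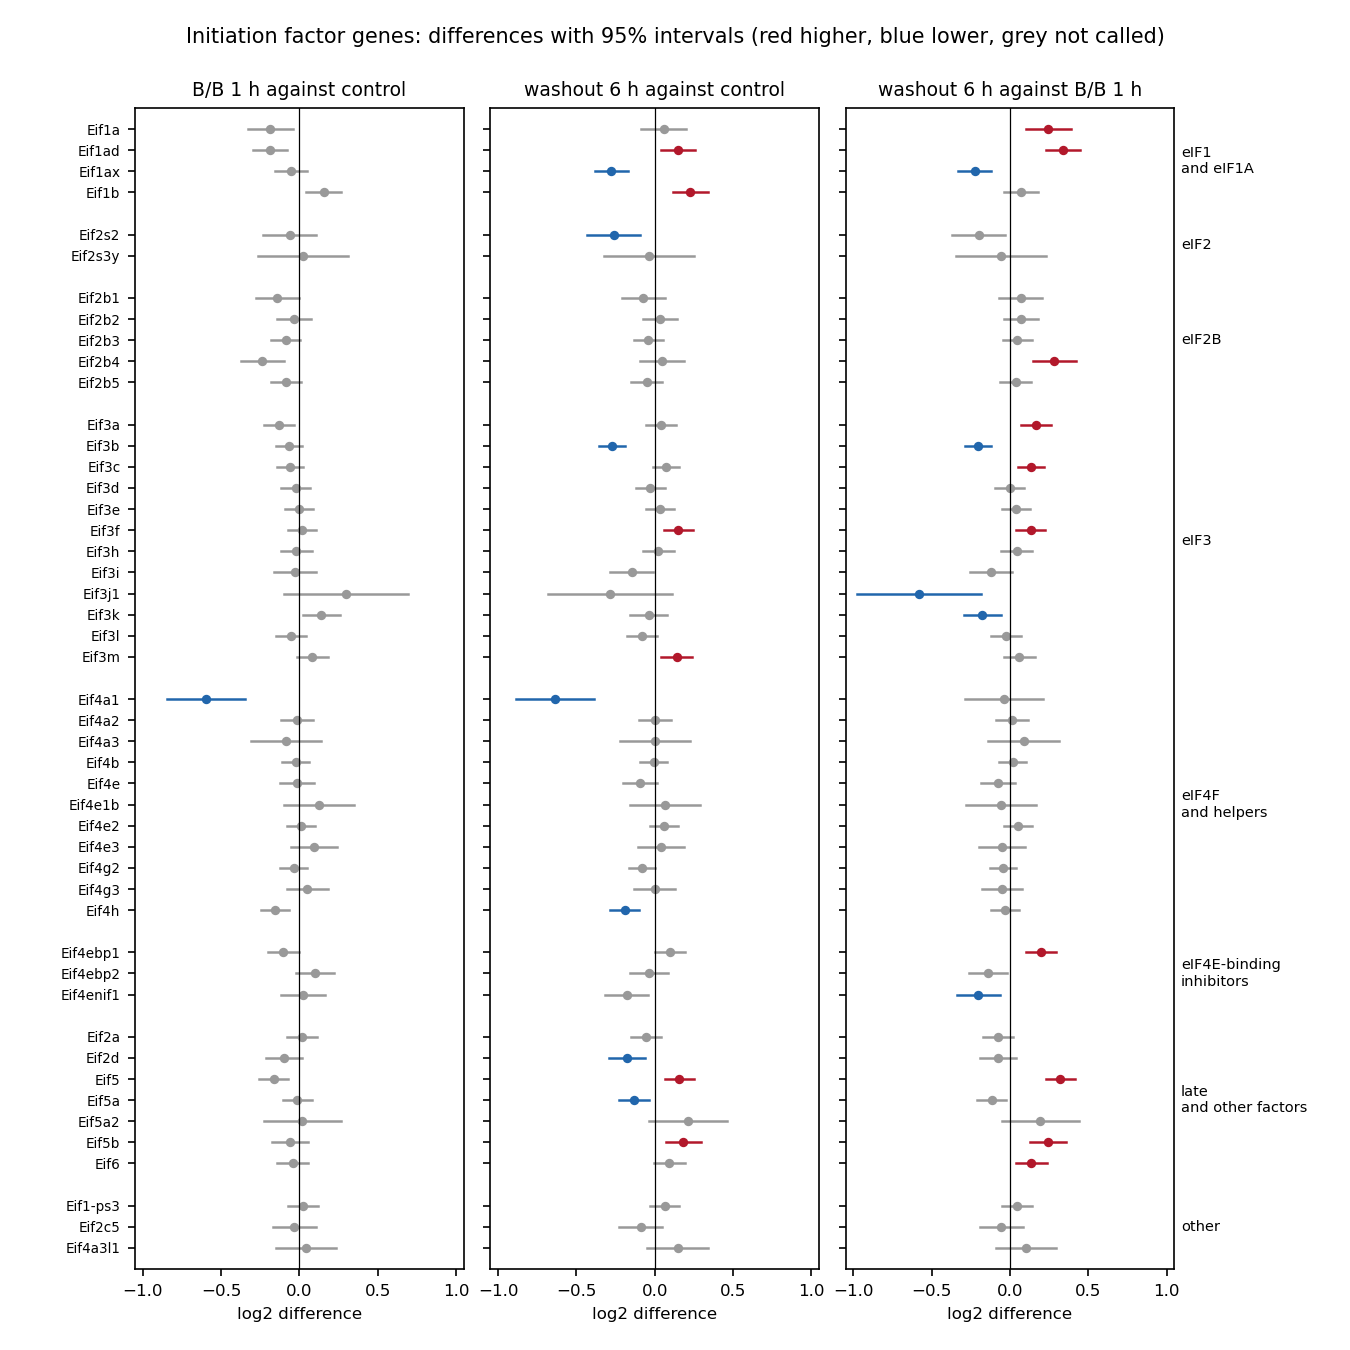
Log2 difference of every initiation factor gene in the 3 comparisons, as points with 95% intervals, by functional group. Eif4a1 stands at -0.60 and -0.63 against control, and most other points lie within 0.35 of 0.

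In all, 22 members were called in at least 1 comparison and 25 in none. The 22 are 46.8% of members, where 33.3% of all genes were called in at least 1, and 50% of the members outside the lowest 30%, where 45.3% of such genes were. Eif1ad, Eif3f, Eif5 and Eif5b were higher after washout than in either other group, and Eif1ax and Eif3b were lower than in either. Another 6 (Eif1a, Eif2b4, Eif3a, Eif3c, Eif4ebp1 and Eif6) were called higher against B/B 1 h and not against control, and 3 (Eif3j1, Eif3k and Eif4enif1) were called lower in that comparison alone. The remaining calls were against control, with 2 higher (Eif1b and Eif3m), 4 lower (Eif2d, Eif2s2, Eif4h and Eif5a) and Eif4a1. A call in 1 comparison and not in another does not show that they differ.

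The counts depended on single arrays. The 1 call at B/B 1 h was lost without control replicate 1, 2 or 3 or B/B 1 h replicate 2 or 3. The 13 calls of washout against control became 8 without control replicate 1, 6 without control replicate 2, 7 without washout replicate 1 or 2 and 8 without washout replicate 3. In these fits 12.8% to 17% of members were called, against 22.6% to 23.3% of all genes. The 15 calls of washout against B/B 1 h became 9 without B/B 1 h replicate 2 or 3 (19.1% of members, against 25.4% and 27.4% of all genes). Without B/B 1 h replicate 1, the array of lowest weight, they became 11 (23.4%, against 25.7%).

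Of the cap-binding complex and its helpers, 11 of 12 listed genes were measured, and 1 was lower at B/B 1 h and 2 after washout against control, with none called between washout and B/B 1 h. Over all genes, 1.88% and 11.7% were lower than control, and 28.6% were called between washout and B/B 1 h. This group and those below are small, and their counts were not tested against such shares. Eif4a1 encodes eIF4A1, the helicase that unwinds the mRNA leader. Its control log2 levels were 11.80, 11.81 and 11.75. At B/B 1 h they were 11.30, 11.10 and 11.17, and after washout 11.30, 10.86 and 11.30. Every treated array was below every control array, and the B/B 1 h and washout arrays overlapped. Eif4a1 fell 1.51-fold at B/B 1 h, a log2 difference of -0.60 ± 0.11 (SE, n = 3 per group, limma adjusted p = 0.0230), and 1.55-fold after washout against control (-0.63 ± 0.11, adjusted p = 0.0018). Without control replicate 1, 2 or 3 or B/B 1 h replicate 2 or 3 the 1 h adjusted p rose as far as 0.0795. The call after washout remained under each of the 17 alternatives.

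The fall of Eif4a1 at B/B 1 h was not seen at its other probe set. A second probe set with the symbol Eif4a1 alone, looked at after its values were seen, read 9.49, 9.48 and 9.54 in control, 9.47, 9.51 and 9.61 at B/B 1 h and 9.31, 9.31 and 9.39 after washout. In a limma fit over all 41345 probe sets its difference at B/B 1 h was 0.03 ± 0.051 (SE, adjusted p = 0.818), beside -0.60 ± 0.12 (adjusted p = 0.0404) for the first. Against control after washout it was -0.17 ± 0.051 (adjusted p = 0.0618), and against B/B 1 h -0.20 ± 0.051 (adjusted p = 0.0288). With the 2 probe sets averaged, Eif4a1 was not called at 1 h. The first probe set also read 11.3006 on 3 arrays, B/B 1 h replicate 1 and washout replicates 1 and 3. Values identical on 3 or more arrays occurred in 13 of 47 members and 26.7% of all genes, and their part in the spread was not tested.

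Probe sets of Eif4a2, the close paralogue of Eif4a1, also gave different values, and they too were picked once the values were known. The probe set that stood for the gene was level, at 10.19 ± 0.04, 10.18 ± 0.04 and 10.19 ± 0.05 (SD, n = 3). A second read 8.79, 8.55 and 8.90 in control, 7.82, 8.15 and 8.58 at B/B 1 h and 8.17 ± 0.18 (SD) after washout, a difference at 1 h of -0.56 ± 0.19 (adjusted p = 0.182). The third gave -0.32 ± 0.10 (adjusted p = 0.155), and neither was called. A probe set for Eif4a2 and Rfc4 gave -0.06 ± 0.062 (adjusted p = 0.667). A probe set annotated to both Eif4a2 and Snord2, a small nucleolar RNA gene within it, read 8.42, 8.53 and 8.63 in control, 7.61, 7.59 and 7.85 at B/B 1 h and 8.15, 8.25 and 8.02 after washout. It fell by 0.84 ± 0.093 at 1 h (adjusted p = 0.0030) and then rose by 0.46 ± 0.093 (adjusted p = 0.0089), remaining 0.39 ± 0.093 below control (adjusted p = 0.0221). A probe set for Eif4a2 and Snora81 gave -0.67 ± 0.16 (adjusted p = 0.0709) at 1 h. RefSeq places 5 small nucleolar RNA genes inside Eif4a2 and 3 inside Eif4a1. Whether any of the 1-symbol probe sets reads them was not tested.

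**Figure D3:**
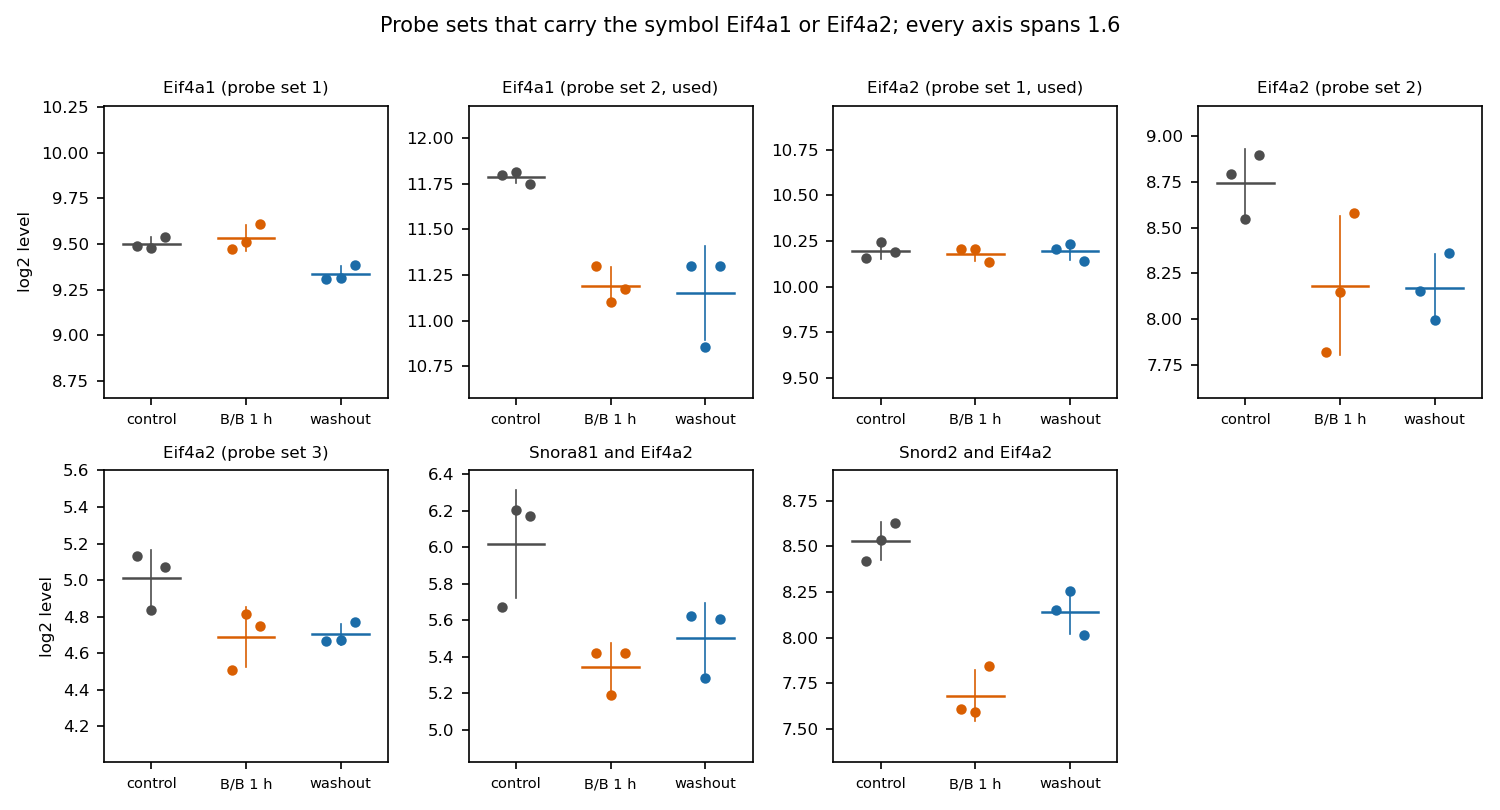
Log2 level on each array for the probe sets that carry the symbol Eif4a1 or Eif4a2, with group means and 1 SD. One Eif4a1 probe set drops from a mean of 11.79 to 11.19 at B/B 1 h while the other stays at 9.50 and 9.53.

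Eif4h encodes an RNA-binding protein that stimulates eIF4A. Its log2 level was 10.93 ± 0.01 in control, 10.77 ± 0.04 at B/B 1 h and 10.74 ± 0.02 after washout (SD, n = 3), and it fell by 0.19 ± 0.040 against control after washout (limma adjusted p = 0.0052). The other 9 measured genes of the group were not called. Eif4b, which also assists eIF4A, read 11.99 ± 0.03, 11.97 ± 0.02 and 11.99 ± 0.01, and the cap-binding Eif4e at 10.33 ± 0.05, 10.32 ± 0.06 and 10.24 ± 0.05. Among these 9 the widest differences were 0.12 for Eif4e1b at B/B 1 h, -0.09 for Eif4e after washout against control and 0.09 for Eif4a3 between washout and B/B 1 h. Eif4g1, the main scaffold, had no 1-symbol probe set and was not analysed here, and its relatives Eif4g2 and Eif4g3 were not called.

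Among the inhibitors that bind eIF4E, 1 of 3 measured was called higher and 1 lower after washout against B/B 1 h. Shares over all genes were 16.6% and 12%. Eif4ebp1, the 4E-BP1 repressor, had log2 levels of 11.03 ± 0.02, 10.93 ± 0.05 and 11.12 ± 0.03 (SD, n = 3) and rose by 0.20 ± 0.043 against B/B 1 h (limma adjusted p = 0.0060). Eif4enif1, which carries eIF4E into the nucleus, had 9.23 ± 0.05, 9.26 ± 0.06 and 9.05 ± 0.11 and fell by 0.20 ± 0.062 (adjusted p = 0.0341). That call was lost without control replicate 2, or B/B 1 h replicate 1 or 3 or else washout replicate 1 or 3, with adjusted p up to 0.118. Eif4ebp2 was not called, at 10.20 ± 0.07, 10.30 ± 0.05 and 10.16 ± 0.06.

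The eIF1 and eIF1A genes, whose proteins govern scanning and start codon choice, were measured in 4 of 5 cases. After washout, 2 of the 4 were called higher and 1 lower against control, and 2 higher and 1 lower against B/B 1 h. Shares over all genes were 14.5% and 11.7% against control, and 16.6% and 12% against B/B 1 h. Eif1ax encodes eIF1A from the X chromosome. Its log2 levels were 10.59, 10.65 and 10.71 in control, 10.57, 10.61 and 10.60 at B/B 1 h and 10.43, 10.33 and 10.35 after washout. All 3 washout arrays were below all others. It fell by 0.28 ± 0.047 against control (limma adjusted p = 0.0015) and by 0.22 ± 0.047 against B/B 1 h (adjusted p = 0.0048). Eif1a, its autosomal copy, had 9.15 ± 0.10, 8.96 ± 0.07 and 9.21 ± 0.06 (SD, n = 3) and rose by 0.24 ± 0.063 against B/B 1 h (adjusted p = 0.0159), a call lost without B/B 1 h replicate 2 or 3 or else washout replicate 2 (adjusted p up to 0.0616). The copies are alike in sequence, and how probes divide between them was not tested.

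Eif1ad, which encodes a protein with an eIF1A-like domain, read 9.44, 9.51 and 9.56 in control, 9.29, 9.29 and 9.37 at B/B 1 h and 9.62, 9.66 and 9.68 after washout. The 3 groups did not overlap, in the order B/B 1 h, control, washout. It rose by 0.34 ± 0.048 between B/B 1 h and washout (limma adjusted p = 4.7e-04) and stood 0.15 ± 0.048 above control (adjusted p = 0.0467). The call against control was lost without any 1 of 7 arrays, those of control replicates 1 and 2, B/B 1 h replicates 1 and 2 and all 3 washout replicates (adjusted p up to 0.152). At B/B 1 h it was 0.19 below control and was not called. Eif1b, a paralogue of the start codon factor eIF1, had 9.27 ± 0.06, 9.42 ± 0.05 and 9.49 ± 0.05 (SD, n = 3) and rose by 0.23 ± 0.049 after washout against control (adjusted p = 0.0069).

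Of the eIF3 subunit genes 12 of 14 were measured. None was called at B/B 1 h, 2 were higher and 1 lower after washout against control, and 3 were higher and 3 lower against B/B 1 h. Over all genes, 2.89% were called at B/B 1 h. The washout shares over all genes were 14.5% and 11.7% against control, and 16.6% and 12% against B/B 1 h. Eif3b encodes a core scaffold subunit. Its log2 levels were 11.56, 11.59 and 11.59 in control, 11.51, 11.52 and 11.50 at B/B 1 h and 11.30, 11.32 and 11.29 after washout. The groups did not overlap and the washout arrays were the lowest. It fell by 0.27 ± 0.037 against control (limma adjusted p = 3.9e-04) and by 0.21 ± 0.037 against B/B 1 h (adjusted p = 0.0020).

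Eif3i, which binds Eif3b within eIF3, was also lower after washout, by 0.15 against control, and was not called. Eif3a, the largest subunit, had 10.53 ± 0.04, 10.40 ± 0.05 and 10.56 ± 0.01 (SD, n = 3) and rose by 0.17 ± 0.043 between B/B 1 h and washout (limma adjusted p = 0.0152), which was lost without B/B 1 h replicate 2 (adjusted p = 0.0539). Eif3c had 11.30 ± 0.02, 11.24 ± 0.01 and 11.37 ± 0.02 and rose by 0.13 ± 0.037 (adjusted p = 0.0229), lost without B/B 1 h replicate 3 or washout replicate 1 or 3 (adjusted p up to 0.0753). Eif3f had 11.67 ± 0.05, 11.69 ± 0.01 and 11.82 ± 0.02 and rose by 0.15 ± 0.041 against control (adjusted p = 0.0224) and 0.13 ± 0.041 against B/B 1 h (adjusted p = 0.0358). The first was lost without control replicate 3 or any washout replicate (adjusted p up to 0.0803) and the second without any B/B 1 h or washout replicate (up to 0.102). Eif3m had 9.84 ± 0.04, 9.93 ± 0.04 and 9.98 ± 0.04 and rose by 0.14 ± 0.044 against control (adjusted p = 0.0414), lost without control replicate 1 or 2, B/B 1 h replicate 2 or washout replicate 1 or 2 (up to 0.138).

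Eif3j1 encodes the loosely bound subunit that helps place eIF3 on the ribosome. It read 5.44, 5.83 and 6.15 in control, 6.31, 6.10 and 5.90 at B/B 1 h and 5.75, 5.36 and 5.45 after washout. Control arrays overlapped with both other groups, and the washout arrays were all below those at B/B 1 h. It fell by 0.58 ± 0.18 between B/B 1 h and washout (limma adjusted p = 0.0327), which was lost without B/B 1 h replicate 1 or 2 or else washout replicate 2 or 3 (adjusted p up to 0.117). A probe set that carries both Eif3j2 and Eif3j1 read 9.50 ± 0.01, 9.55 ± 0.05 and 9.34 ± 0.08 and fell by 0.21 ± 0.053 in the same comparison (adjusted p = 0.0246 over all probe sets). Eif3k, an accessory subunit, had 10.01 ± 0.04, 10.15 ± 0.07 and 9.97 ± 0.07 and fell by 0.18 ± 0.053 (adjusted p = 0.0299), lost without B/B 1 h replicate 2 or 3 or else washout replicate 1 (up to 0.106). The uncalled eIF3 genes were Eif3d, Eif3e, Eif3h, Eif3i and Eif3l.

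Of eIF2, 2 of 4 genes were measured, and 1 of these, Eif2s3y, was in the lowest 30% of genes by mean. Eif2s2, the beta subunit, read 9.02 ± 0.03 in control, 8.96 ± 0.001 at B/B 1 h and 8.76 ± 0.17 after washout (SD, n = 3) and fell by 0.26 ± 0.075 against control (limma adjusted p = 0.0282). The call was lost without control replicate 1, 2 or 3 or washout replicate 2 or 3 (adjusted p up to 0.105). Its washout arrays read 8.96, 8.65 and 8.67. The first held the identical value, 8.95871, as B/B 1 h replicates 2 and 3, and the small SD at B/B 1 h includes that repeated value. Of eIF2B, the guanine nucleotide exchange factor for eIF2, all 5 subunits were measured and 0 were called against control. Shares over all genes were 2.89% at B/B 1 h and 26.2% after washout. Eif2b4, the delta subunit, had 6.57 ± 0.06, 6.34 ± 0.09 and 6.62 ± 0.07 and rose by 0.28 ± 0.061 between B/B 1 h and washout (adjusted p = 0.0061). All 5 eIF2B genes were below control at B/B 1 h, by 0.04 for Eif2b2 to 0.24 for Eif2b4, with none called. So were 31 of the 47 members and 10727 of all 22180 genes, called or not. After washout the eIF2B genes lay between -0.07 (Eif2b1) and 0.05 (Eif2b4) of control.

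Of the late and other factors, 3 of 7 were called higher and 0 lower after washout than at B/B 1 h, and against control 2 were called higher and 2 lower. Shares over all genes were 16.6% and 12% against B/B 1 h, and 14.5% and 11.7% against control. Eif5 encodes the protein that triggers GTP hydrolysis by eIF2 once the start codon is found. It read 10.97, 10.94 and 10.97 in control, 10.76, 10.77 and 10.85 at B/B 1 h and 11.12, 11.12 and 11.11 after washout. The 3 groups did not overlap, in the same order as those of Eif1ad. Eif5 rose by 0.32 ± 0.041 between B/B 1 h and washout (limma adjusted p = 2.3e-04) and stood 0.16 ± 0.041 above control (adjusted p = 0.0169), the latter lost without control replicate 2 or washout replicate 1 (adjusted p up to 0.0587). It was 0.16 below control at B/B 1 h and was not called there.

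Eif5b, the subunit-joining GTPase, had 7.79 ± 0.06, 7.73 ± 0.07 and 7.97 ± 0.02 (SD, n = 3) and rose by 0.24 ± 0.050 against B/B 1 h (limma adjusted p = 0.0048) and 0.18 ± 0.050 against control (adjusted p = 0.0233), the latter lost without control replicate 1 or 2 or any washout replicate (adjusted p up to 0.0817). Eif6, which keeps the large subunit from joining too early, had 11.51 ± 0.04, 11.47 ± 0.03 and 11.60 ± 0.04 and rose by 0.14 ± 0.044 against B/B 1 h (adjusted p = 0.0433). That was lost without control replicate 1 or 2, any B/B 1 h replicate or washout replicate 1 or 3 (up to 0.134). Eif5a, which acts mostly in elongation, had 10.95 ± 0.02, 10.93 ± 0.05 and 10.81 ± 0.02 and fell by 0.13 ± 0.042 against control (adjusted p = 0.0425), lost without any control or washout replicate or B/B 1 h replicate 2 (up to 0.127). Eif2d, a relative of the reinitiation pair Mcts1 and Denr, had 7.77 ± 0.03, 7.67 ± 0.08 and 7.59 ± 0.05 and fell by 0.18 ± 0.050 against control (adjusted p = 0.0274), lost without control replicate 2 or 3 or washout replicate 1 or 2 (up to 0.0974). Eif2a and Eif5a2 were not called.

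**Figure D4:**
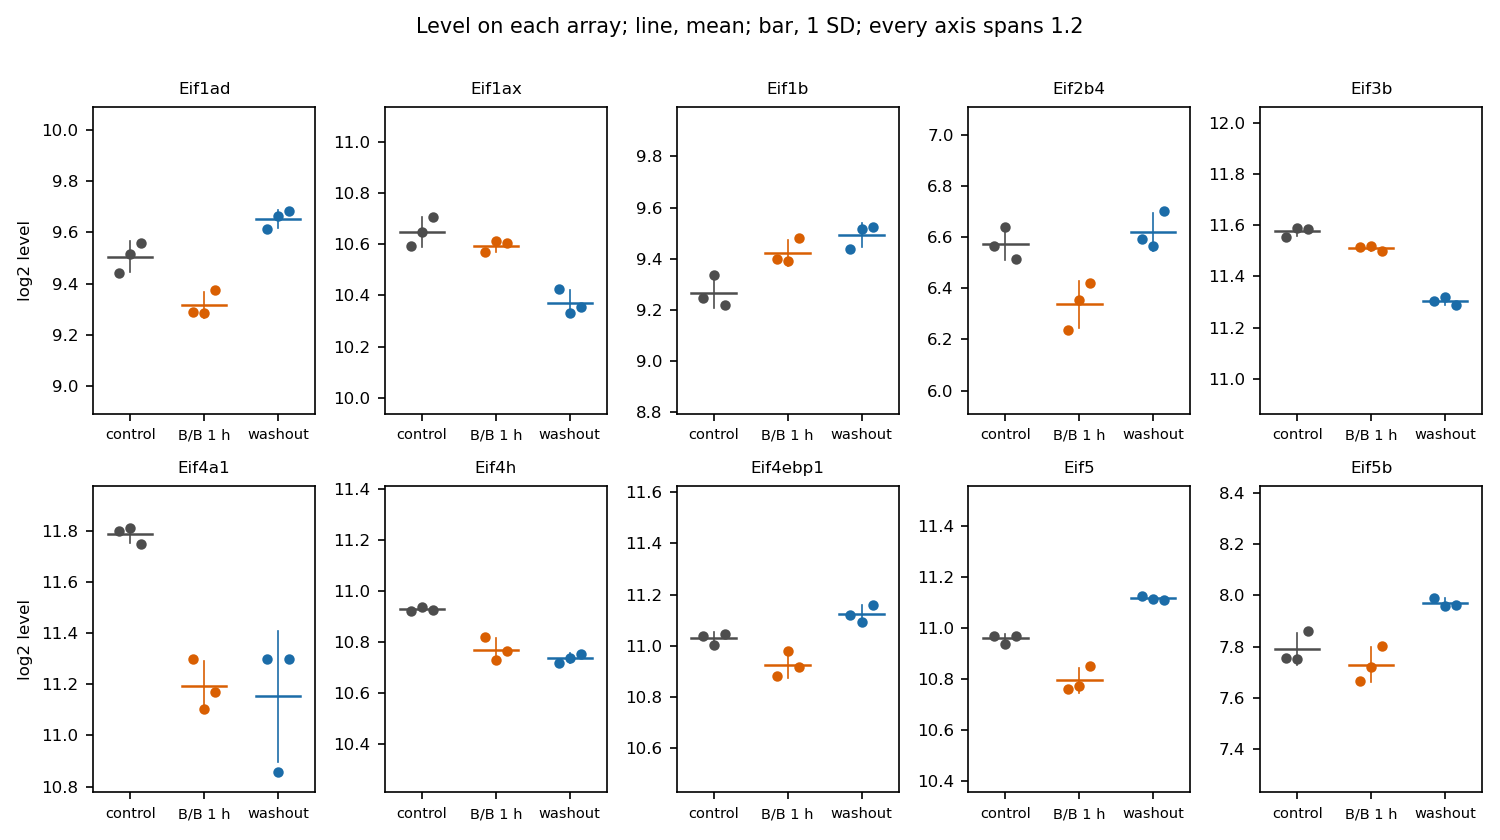
Log2 level on each array of the 10 initiation factor genes with a call kept under every alternative, with group means and 1 SD. The groups are control, B/B 1 h and washout 6 h. Eif4a1 is lower in both treated groups, Eif1ax and Eif3b are lowest after washout, and Eif1ad and Eif5 are lowest at B/B 1 h and highest after washout.

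The genes around initiation, a list of regulators and later steps chosen with earlier results of these data known, were called at B/B 1 h in 1 of 43 higher and 2 lower (6.98%, against 2.89% of all genes), after washout against control in 8 higher and 9 lower (39.5%, against 26.2% of all genes) and against B/B 1 h in 10 higher and 7 lower (39.5%, against 28.6%). All of the list but Gspt2 lay outside the lowest 30% of genes by mean. Among all genes outside it, 3.99%, 36.2% and 39.3% were called in the 3 comparisons, so both washout shares were near that background. After quantile normalization the split of the list at 1 h was 1 and 1. Genes of the list reached differences the initiation factors did not. Ppp1r15a, the phosphatase subunit GADD34 that reverses phosphorylation of eIF2, read 7.67, 7.71 and 7.67 in control, 8.69, 8.75 and 8.74 at B/B 1 h and 7.13, 7.03 and 7.01 after washout. The groups did not overlap. It rose 2.06-fold at 1 h (log2 1.04 ± 0.045, limma adjusted p = 2.7e-06) and fell 3.18-fold from there to washout (log2 -1.67 ± 0.045, adjusted p = 1.6e-08), to 0.63 ± 0.045 below control (adjusted p = 7.4e-06).

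Genes of the kinases that phosphorylate eIF2 were also called, except Eif2ak3, which was called in no comparison. Eif2ak2, the double-stranded RNA sensor PKR, fell by 0.47 ± 0.047 at B/B 1 h (limma adjusted p = 6.2e-04) and rose by 0.30 ± 0.047 from there to washout (adjusted p = 8.0e-04). After washout it was still 0.17 below control (adjusted p = 0.0217). That call was lost without control replicate 1, 2 or 3 or washout replicate 1 (adjusted p up to 0.0830). Eif2ak1, the heme-regulated kinase, rose after washout by 0.32 ± 0.052 against control (adjusted p = 0.0012) and 0.49 ± 0.052 against B/B 1 h (adjusted p = 7.6e-05). Impact, an inhibitor of the amino acid sensor GCN2, fell by 0.40 ± 0.054 and 0.23 ± 0.054 in the same comparisons (adjusted p = 4.0e-04 and 0.0096). Eif2ak4 rose by 0.14 against control (adjusted p = 0.0470) and 0.21 against B/B 1 h (adjusted p = 0.0053). Its call against control was lost without control replicate 2 or 3, any B/B 1 h replicate or washout replicate 1 or 2 (adjusted p up to 0.149).

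Denr and Mcts1, whose proteins form a pair in recycling and reinitiation, were called in opposite directions in both washout comparisons. At B/B 1 h neither was called, and both means were below control. These were 9.15 against 9.27 for Denr and 6.54 against 6.79 for Mcts1. Denr read 9.28, 9.23 and 9.30 in control, 9.17, 9.08 and 9.19 at B/B 1 h and 10.05, 10.09 and 10.03 after washout, a rise of 0.79 ± 0.045 against control (limma adjusted p = 2.2e-06) and 0.91 ± 0.045 against B/B 1 h (adjusted p = 7.3e-07). Mcts1 fell by 0.48 ± 0.059 (adjusted p = 2.2e-04) and 0.23 ± 0.059 (adjusted p = 0.0151), the latter lost without B/B 1 h replicate 3 (adjusted p = 0.0535). Mtif3, an initiation factor of mitochondria, rose by 0.68 ± 0.13 (adjusted p = 0.0029) and 0.93 ± 0.13 (adjusted p = 3.9e-04). Paip2, an inhibitor of poly(A)-binding protein, rose by 0.29 ± 0.058 against control (adjusted p = 0.0038).

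Of 11 measured eIF4E and mTORC1 regulators, 1 was called lower at B/B 1 h and 0 higher. After washout 3 were lower against control and 4 against B/B 1 h, again with 0 higher. Of all genes, 1.88%, 11.7% and 12% were lower in these comparisons. Among regulators of the mTORC1 pathway, which controls the 4E-BP proteins, Ddit4, an inhibitor of that pathway, read 10.37, 10.30 and 10.32 in control, 10.10, 10.12 and 10.14 at B/B 1 h and 9.18, 9.12 and 9.25 after washout. It fell by 1.15 ± 0.046 against control after washout (limma adjusted p = 2.6e-07) and by 0.94 ± 0.046 from B/B 1 h (adjusted p = 6.6e-07). Its fall of 0.21 ± 0.046 at 1 h (adjusted p = 0.0439) was lost without any 1 control or B/B 1 h replicate or washout replicate 1 (adjusted p up to 0.126). Rps6kb2, an S6 kinase, fell by 0.42 ± 0.054 against control (adjusted p = 3.0e-04) and 0.27 ± 0.054 against B/B 1 h (adjusted p = 0.0039). Eef2k, the kinase that slows elongation, rose by 0.46 ± 0.078 against B/B 1 h (adjusted p = 0.0014) and 0.29 ± 0.078 against control (adjusted p = 0.0187), the latter lost without control replicate 1 or 3 or washout replicate 2 or 3 (up to 0.0731).

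**Figure D5:**
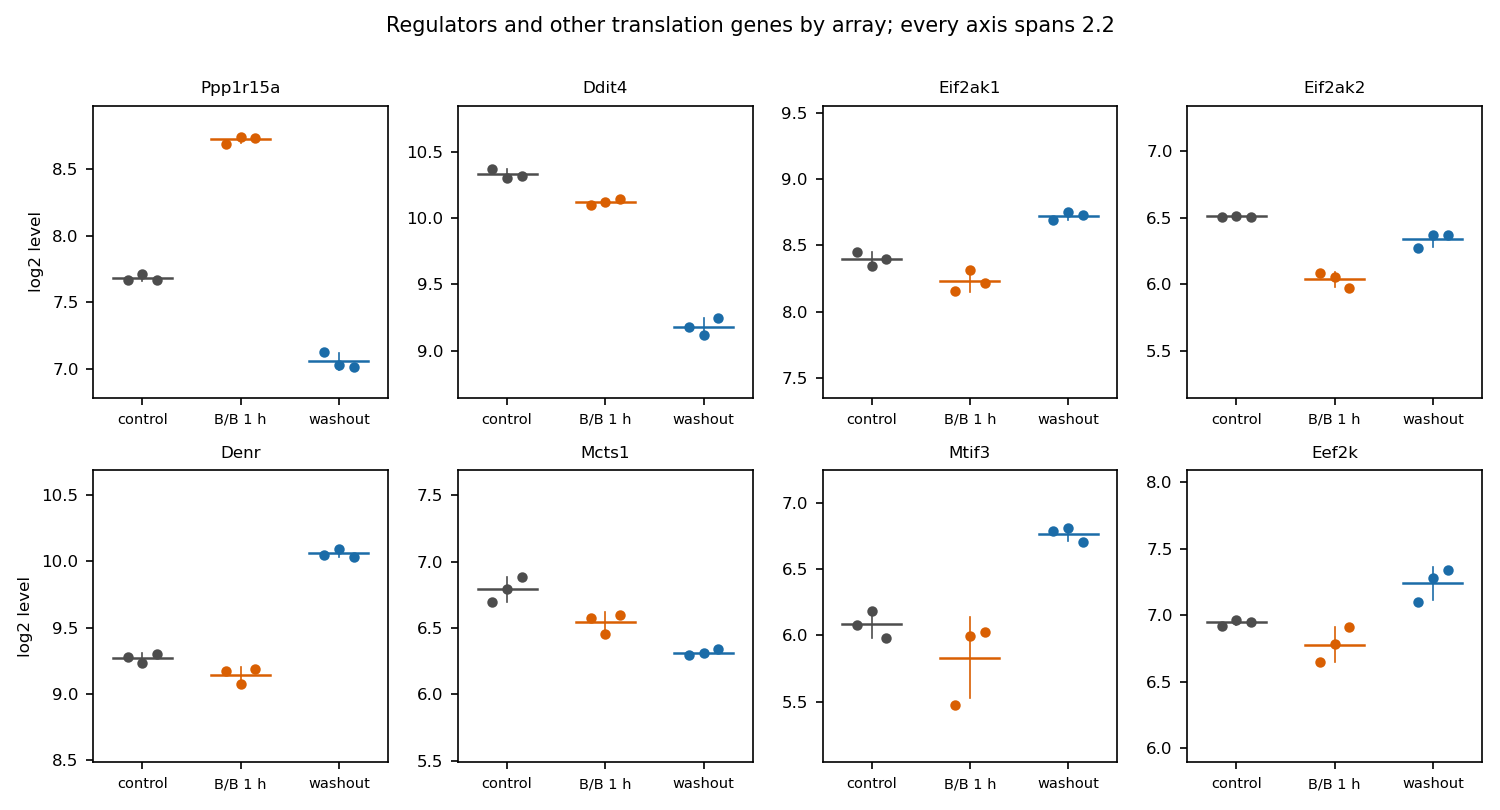
Log2 level on each array of regulators and other translation genes in control, B/B 1 h and washout 6 h, with group means and 1 SD. Ppp1r15a is highest at B/B 1 h (8.69 to 8.75), and Denr is highest after washout (10.03 to 10.09).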

How the data were processed

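Total RNA of 9 samples was extracted with Trizol and hybridised as biotin-labelled cRNA, per the labels' protocols. The authors deposited log2 probe set values, with base 2 inferred from the values, so that every fold rests on that base. Per the submitters' processing notes the software was Partek 6.6. Summary and normalization methods are not given in the sources used here. There were 41345 probe sets: 23521 with 1 symbol, 1814 with more and 16010 without. Symbols of all 47 members matched RefSeq's GRCm38.p6 table, which gave names, neighbouring genes and promoter windows.

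In R 4.3.3, limma 3.58.1 fitted 3 group means over all 9 arrays, with residual and prior degrees of freedom of 6 and 3.38. The adjustment was Benjamini-Hochberg over 22180 genes in each comparison, with calls at adjusted p under 0.05. The typical (median) standard error was 0.0636 on the log2 scale, and 3 arrays a group limit precision. Code was tested on simulated data. Replicates were numbered in accession order.

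The members and lists were chosen with earlier results of these data known. Members past the threshold were named with values, with each array's value for those with an absolute log2 difference of at least 0.5 and the 3 largest in each comparison. Other members were given by counts and the ends of their range. Translation genes outside the rule were named where called, from at most the 5 highest and 5 lowest in each comparison. Eif2ak3 and Eif2ak4 were named besides, with the other eIF2 kinase genes. Alternatives were quantile normalization, centred medians, the lowest 30% of genes left out, probe sets averaged, a variance trend, array weights, only the 2 groups compared, each array left out and, added after seeing the data, every probe set tested on its own.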

Additional observations from a re-analysis of the deposited data

How the results depend on the processing

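Of the 29 calls of initiation factor genes, 12 were kept under each of the 17 alternatives run and 17 were lost under at least 1, and none reversed. Those kept in every one were, for washout against B/B 1 h, Eif1ad, Eif1ax, Eif2b4, Eif3b, Eif4ebp1, Eif5 and Eif5b, and, for washout against control, Eif1ax, Eif1b, Eif3b, Eif4a1 and Eif4h. The single call at B/B 1 h, Eif4a1, was lost with probe sets averaged, which gave 0 calls in limma and 12 at an unadjusted p under 0.05, while leaving out the lowest 30% of genes gave 4 calls (9.09% of members, against 6.13% of genes) and a variance trend 5 (10.6%, against 5.54%). Leaving out 1 array gave 0 to 1 (at most 2.13% of members, against 1.46% to 3.12% of all genes). For washout against control, testing every probe set on its own gave 8 calls rather than 13 (17%, against 22.4% of all genes). There, leaving out 1 array gave 6 to 13 (12.8% to 27.7%, against 22.6% to 26.6% of all genes). For washout against B/B 1 h, leaving out 1 array gave 9 to 15 (19.1% to 31.9%, against 24.8% to 27.7% of all genes). Of the other translation genes, 3 were called at B/B 1 h (6.98%, against 2.89% of all genes). With the lowest 30% of genes left out 5 were called (11.9%, against 6.13%), and with a variance trend 6 (14%, against 5.54%). With 1 array left out 2 to 3 were called (4.65% to 6.98%, against 1.46% to 3.12%). Besides single arrays, fitting only the 2 groups compared ended 6 member calls, centring medians 4, quantile normalization 1, probe sets averaged 1 and every probe set on its own, with adjustment over 41345 tests, 10. The cause was not tested. No paired analysis was possible because the labels give no replicate numbers that groups share.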

Other observations

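Probe sets that carry a member's symbol with another gene's were outside the rule, and 8 were read in the fit over all 41345 probe sets. The probe set for Eif4a3, Eif4a3l1 and Gm5576 read 10.10 ± 0.04 in control, 10.07 at B/B 1 h and 9.91 after washout, a log2 difference of -0.19 ± 0.054 against control (limma adjusted p = 0.0490). The 1-symbol probe set of Eif4a3, an exon junction helicase, was at 6.64 ± 0.11, 6.55 ± 0.19 and 6.64 ± 0.10 (SD, n = 3) and was not called. Eif2s3x, the gamma subunit of eIF2, was read by 2 probe sets that also carry Gm2223, with differences at B/B 1 h of 0.11 ± 0.080 and -0.15 ± 0.087 (adjusted p = 0.540 and 0.431), neither called in any comparison. The probe set of Eif4ebp3 and Ankhd1 gave 0.04 ± 0.054 at B/B 1 h (adjusted p = 0.741) and -0.08 ± 0.054 between washout and B/B 1 h (adjusted p = 0.355).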
